A study of Mus musculus with 18 samples.

Results

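The genes described here are 49 of the 67 genes that the study's authors listed under apoptosis, out of 12205 genes with deposited folds. They were taken from the authors' list by Ensembl identifier, after setting aside symbols that begin with Tnf, Traf, Il, Csf, Nfkb, Cts or Dna and a fixed set of single genes such as Fas, Tradd, Ripk1, Birc3, Cycs and Akt1, which removed 18 genes. The authors' table of list scores names the list KEGG Apoptosis, after the pathway database. All 49 genes are annotated as protein coding in GENCODE M21.

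The series holds 18 libraries of primary mouse astrocytes homozygous for the R132H allele of Eif2b5 (Eif2b5-R132H-R132H mutant). Eif2b5 encodes a subunit of eIF2B, the factor that recharges the translation initiation factor eIF2, and its mutation is a cause of vanishing white matter disease. The cells, thawed and grown in a commercial astrocyte medium, were left untreated, or were given TNFα at 20 ng/ml together with IL-1β at 0.25 ng/ml and collected after 24 hr or after 48 hr of exposure, all at the same time after seeding. Each of the 3 conditions was measured by RNA-seq and by Ribo-seq, which sequences the mRNA fragments protected by ribosomes, with 3 libraries per group from batches A, B and C. All libraries carry the mutation, and the WT folds below come from the authors' deposited table, while the WT libraries themselves were not analysed here.

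The files give 1 pooled log2 fold per gene and comparison, cytokine-treated over untreated cultures within a genotype, for mRNA, for ribosome-protected fragments (RPF, or footprints) and for ribosome density (RD). There are no replicate values, so no fold carries an error, no gene was tested, and depth per library is unknown. A log2 fold of 1, a doubling, was used as a descriptive threshold. Fewer cells of a type and less RNA per cell cannot be told apart in such bulk samples. All 10 astrocyte markers examined had a fold, with 4 of them above 0 in mutant mRNA at 24 hr, of which 1, Slc1a2, was at or above 1, and 3, Gfap among them, at or below -1. Of 12 microglia and macrophage markers only 4 had a fold analysed here, and 2 of these were at or above 1 in mutant mRNA at 24 hr and 3 at 48 hr. All 9 fibroblast and mural markers had one, between -2.81 and 4.60 at 24 hr. The same held for 3 of 5 endothelial, 4 of 7 oligodendrocyte lineage, 4 of 6 neuronal and 4 of 5 ependymal and choroid markers. The part of any such cells in the results below was not tested.

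Apoptosis is run by caspases, proteases that are made as inactive precursors. In the death receptor route, receptors of the TNF family recruit the adaptor FADD, which activates caspase-8. In the mitochondrial route, BH3-only members of the BCL-2 family switch on the pore formers BAX and BAK, cytochrome c leaves the mitochondria and APAF1 activates caspase-9. Both routes end at the executioner caspases, and inhibitors of apoptosis (IAPs), the caspase-8 homologue FLIP and survival kinases act against them. TNFα and IL-1β also switch on NF-κB, which in many cell types drives genes that restrain this death programme.

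As a group the 49 genes had a skewed response in mutant cells: most stayed near 0, and a small number were far above it. In mutant mRNA at 24 hr, 9 of 49 were at or above 1, which is 18.4% where 7.73% of all genes were, and 1 stood at -1 or lower, as did 7.27% of all genes. At 48 hr, 8 were at or above 1 (8.96% of all genes) and 2 at or below -1 (8.24% of all genes). The median mRNA fold of the members was 0.07 at 24 hr and 0.17 at 48 hr, while all genes had medians of 0.03 and 0.04. Of the 49 members, 31 had a positive mRNA fold at each time, or 63.3%, where 53.2% of all genes did at 24 hr. In 23 of the 49 genes, mRNA and footprint folds both lay within 0.5 of 0 at both times. That share was not computed over all genes, whose quartiles were also near 0. They were -0.28 and 0.30 in mRNA at 24 hr and -0.32 and 0.38 at 48 hr. In footprints they were -0.31 and 0.31, then -0.30 and 0.28.

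Among the members at or above 1 in mRNA at both times were Pik3r5, Irak3, Pik3cd, Bid, Birc2, Prkar2b and Prkar1b. Pik3r1 passed that level at 24 hr only. The single member at or below -1 at both times was Pik3cb.

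**Figure D1:**
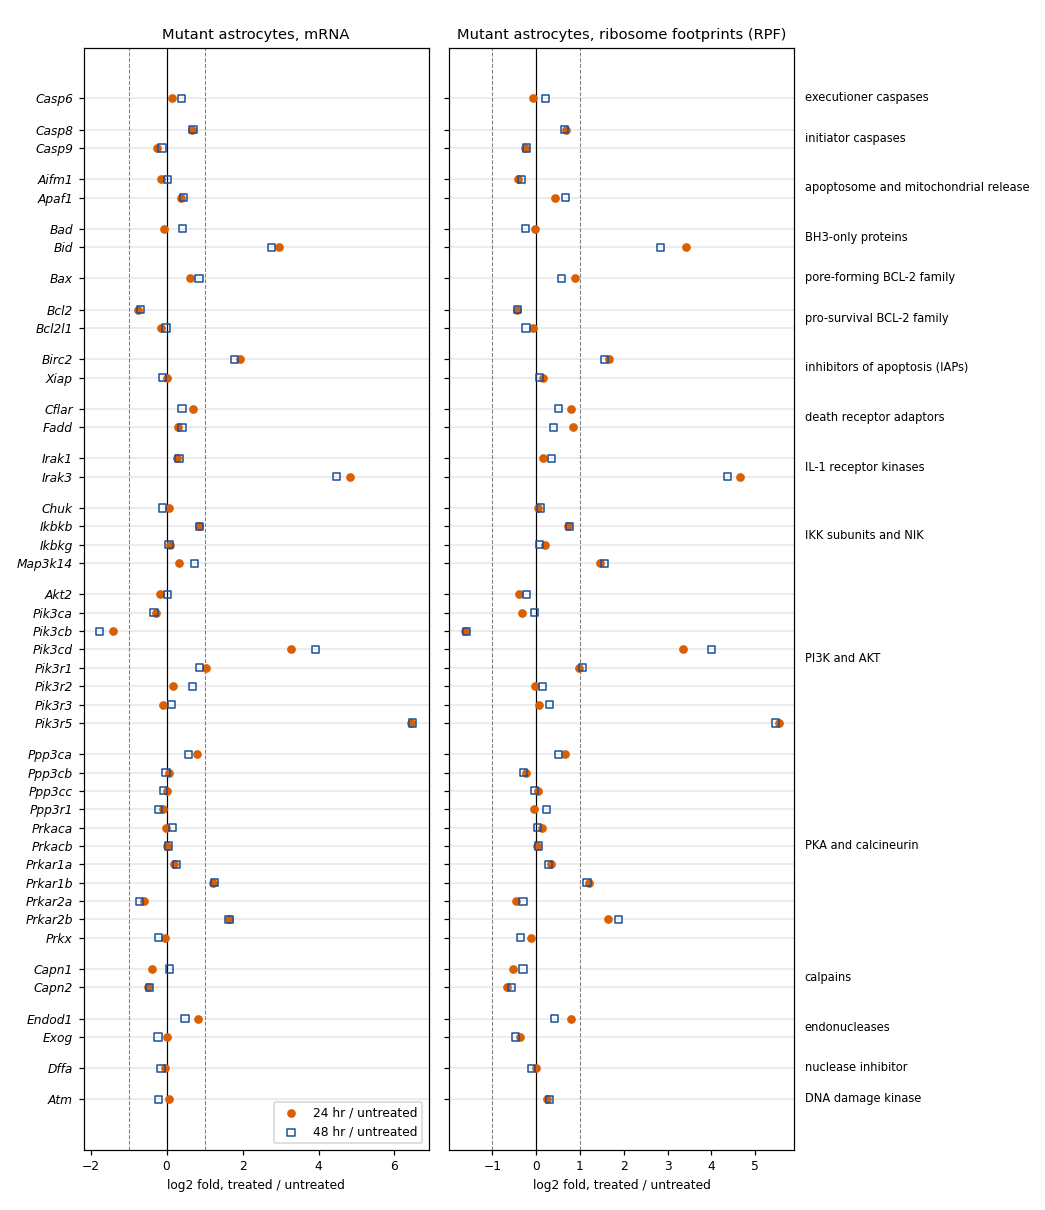
Log2 fold of treated over untreated mutant astrocytes for 45 of the 49 genes (rows, grouped by role), in mRNA on the left and ribosome footprints on the right; filled circles are 24 hr, open squares 48 hr, and dashed lines mark -1 and 1. Pik3r5, Irak3, Pik3cd and Bid stand far to the right in both panels, and Pik3cb is the lowest gene in both.

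Among the caspases named here, the initiators pointed in different directions. Casp8, the initiator of the receptor route, stood at 0.67 and 0.70 in mRNA and at 0.69 and 0.64 in footprints per the authors' deposited table. For Casp9, the initiator of the mitochondrial route, the authors' deposited table gave -0.26 and -0.12 in mRNA and -0.24 and -0.22 in footprints. The receptor-route initiator was thus above 0, and the mitochondrial one below it, in every mutant mRNA and footprint column. Casp6, an executioner, had mRNA folds of 0.15 and 0.40 and footprint folds of -0.07 and 0.21 per the authors' deposited table. Apaf1, which builds the apoptosome around caspase-9, had mRNA folds of 0.39 and 0.45 per the authors' deposited table. Aifm1, a mitochondrial flavoprotein that can move to the nucleus, had mRNA folds of -0.14 and 0.02 there, and footprint folds of -0.41 and -0.33 per the authors' deposited table.

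Within the BCL-2 family, Bid had the largest folds. Bid (chromosome 6, 120891930 to 120916853, GRCm38) encodes the BH3-only protein that caspase-8 cleaves, and so links the receptor route to mitochondria. Its mutant mRNA folds, per the authors' deposited table, were 2.96 at 24 hr and 2.76 at 48 hr, 7.81 and 6.77 times the untreated level. The footprint folds of Bid per the authors' deposited table were 3.41 and 2.84, so footprints exceeded mRNA at 24 hr by 0.45 and at 48 hr by 0.08. Bad, the other BH3-only gene among the 49, stayed small per the authors' deposited table, at -0.07 and 0.42 in mRNA and -0.03 and -0.25 in footprints. Bax, the pore former, had mRNA folds of 0.62 and 0.85 and footprint folds of 0.88 and 0.58 per the authors' deposited table, positive throughout but below 1. The pro-survival genes were on the other side of 0. Bcl2 stood at -0.75 and -0.68 in mRNA and at -0.44 and -0.43 in footprints per the authors' deposited table. Bcl2l1, which encodes BCL-XL, was close to 0 per the authors' deposited table, with mRNA folds of -0.15 and -0.02 and footprint folds of -0.06 and -0.23.

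Of the 2 IAP genes and the 2 adaptor-level genes Fadd and Cflar, Birc2 alone was at or above 1. Birc2 (chromosome 9, 7818227 to 7837064, GRCm38) encodes cIAP1, a ubiquitin ligase of the TNF receptor complex. It had mRNA folds of 1.92 and 1.79 and footprint folds of 1.67 and 1.57 per the authors' deposited table. Xiap, the IAP that binds active caspases directly, stayed near 0 per the authors' deposited table, at 0.02 and -0.12 in mRNA and 0.16 and 0.07 in footprints. The 2 IAPs thus stood apart by more than 1 in every mRNA and footprint column. Cflar, which encodes the caspase-8 inhibitor FLIP, had mRNA folds of 0.69 and 0.40 and footprint folds of 0.79 and 0.52 per the authors' deposited table. Fadd had mRNA folds of 0.30 and 0.41 per the authors' deposited table, with footprint folds of 0.85 at 24 hr and 0.40 at 48 hr.

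Kinases below the IL-1 receptor and upstream of NF-κB split in the same uneven way. Irak3 (chromosome 10, 120141648 to 120202130, GRCm38), known as an inhibitor of IL-1 and Toll-like receptor signalling, had mRNA folds of 4.82 and 4.46 per the authors' deposited table, 28.2 and 22.1 times the untreated level. Its footprint folds, per the authors' deposited table, were 4.66 and 4.36. Irak1, a kinase of that receptor complex, was far lower per the authors' deposited table, at 0.27 and 0.33 in mRNA. The IKK genes were small to moderate: per the authors' deposited table Ikbkb, which encodes the catalytic subunit IKKβ, stood at 0.86 at both times in mRNA, Chuk at 0.05 and -0.10, and Ikbkg, the regulatory subunit NEMO, at 0.08 and 0.06. Map3k14 (chromosome 11, 103219762 to 103267472, GRCm38) encodes NIK, the kinase of the non-canonical NF-κB pathway, whose protein is kept low by a complex that includes cIAP1. Its mRNA folds were 0.32 and 0.75 per the authors' deposited table, while its footprint folds were 1.45 and 1.57.

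The phosphoinositide 3-kinase (PI3K) genes, which act upstream of the survival kinase AKT, held both the highest and the lowest member. Pik3r5 (chromosome 11, 68432121 to 68497849, GRCm38) encodes p101, a regulatory subunit of PI3Kγ that is known mainly from leukocytes. It had mRNA folds of 6.42 and 6.48 per the authors' deposited table, which placed it 66th and 73rd from the top among all genes. Its footprint folds, per the authors' deposited table, were 5.53 and 5.46, lower than the mRNA folds by 0.89 and 1.02. Pik3cd (chromosome 4, 149649168 to 149702571, GRCm38) encodes the catalytic subunit p110δ, also known mainly from leukocytes. It had mRNA folds of 3.27 and 3.91 and footprint folds of 3.36 and 4.00 per the authors' deposited table. Pik3cb (chromosome 9, 99036654 to 99140621, GRCm38), which encodes the more widely expressed p110β, had mRNA folds of -1.41 and -1.77 and footprint folds of -1.62 and -1.58 per the authors' deposited table. Pik3ca, which encodes p110α, was much nearer 0 per the authors' deposited table, at -0.27 and -0.33 in mRNA. The class IA catalytic genes thus had mRNA folds of opposite sign, with Pik3cd above 0 and the other two below it at both times. Macrophage markers with a fold differed among themselves per the authors' deposited table: Cd68 stood at 1.89 and 1.18 in mRNA, Tmem119 at 1.16 and 1.43, and Adgre1 at 0.82 and 6.71. Of the list, 8 markers, Aif1, Csf1r and Ptprc among them, had no fold analysed here.

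The remaining PI3K and AKT genes were smaller. Pik3r1, which encodes the regulatory subunit p85α, had mRNA folds of 1.04 and 0.87 and footprint folds of 0.97 and 1.05 per the authors' deposited table. Pik3r2 stood at 0.18 and 0.68 in mRNA per the authors' deposited table, and Pik3r3 at -0.09 and 0.14. Akt2 was near 0 per the authors' deposited table, with mRNA folds of -0.17 and 0.01.

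Promoter sequence is shown for the members at or above 1 whose promoter holds the NF-κB consensus, since the cytokines used are inducers of this factor, and for Bcl2l1 as a member with the consensus and folds near 0. The search covered the 250 bases before each RefSeq start site (GRCm38.p6), on both strands, for 40 members with a promoter in the table. The consensus of 10 letters was found for 8 of these 40 genes (20.0%), where 8.23% of the 27025 genes with a RefSeq promoter had it. That background was not limited to the 12205 genes with a fold, so the shares compare unlike sets. Members had more promoters per gene in the table, 73 for 40 genes, and per promoter the shares were 12.3% for members and 7.25% for all. Of 9 members at or above 1 in mutant mRNA or footprints with a promoter, 3 held it, namely Pik3cd, Pik3r1 and Prkar1b. Bid, Birc2, Irak3, Map3k14, Pik3r5 and Prkar2b had no match in these windows. Of 31 other members with a promoter, 5 held it, among them Bcl2l1. A gene can have several annotated starts, and a match is a description of letters and not of binding. The 60-base stretches below are given 5′ to 3′ on the strand of the gene, with the match in capitals.
Pik3cd, chr4:149676141-149676200, minus strand: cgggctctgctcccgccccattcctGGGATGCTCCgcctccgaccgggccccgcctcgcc
Pik3r1, chr13:101768391-101768450, minus strand: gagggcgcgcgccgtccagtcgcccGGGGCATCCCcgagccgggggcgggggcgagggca
Prkar1b, chr5:139130391-139130450, minus strand: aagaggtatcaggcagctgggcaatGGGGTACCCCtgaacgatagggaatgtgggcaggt
Bcl2l1, chr2:152830908-152830967, minus strand: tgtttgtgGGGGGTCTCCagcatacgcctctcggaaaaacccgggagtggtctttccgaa
The matches begin 86, 208, 39 and 242 bases before the start site in the order printed. The Pik3cd, Prkar1b and Bcl2l1 stretches lie before start sites inside the annotated genes, and the Pik3r1 stretch lies outside its annotated gene.

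The authors' list also holds subunits of protein kinase A, which can phosphorylate BAD, and of the phosphatase calcineurin, which can dephosphorylate it. Of these 11 genes, 2 regulatory subunits of protein kinase A were at or above 1. Prkar2b had mRNA folds of 1.64 at both times and footprint folds of 1.65 and 1.89 per the authors' deposited table. Prkar1b stood at 1.23 and 1.27 in mRNA and at 1.20 and 1.16 in footprints per the authors' deposited table. Their widely expressed counterparts were lower: the authors' deposited table gave mRNA folds of 0.20 and 0.25 for Prkar1a and of -0.59 and -0.71 for Prkar2a. The catalytic subunit genes Prkaca and Prkacb lay between -0.03 and 0.17 in mRNA per the authors' deposited table. Ppp3ca, a catalytic subunit of calcineurin, had mRNA folds of 0.80 and 0.59 per the authors' deposited table, while Ppp3cb stood at 0.06 and -0.02, Ppp3cc at 0.02 and -0.08 and the regulatory gene Ppp3r1 at -0.10 and -0.21. Prkx, a kinase gene related to protein kinase A, stood at -0.03 and -0.22 in mRNA per the authors' deposited table.

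The other members stayed within 1 of 0. The calpain genes Capn1 and Capn2, which encode calcium-dependent proteases, had mRNA folds of -0.39 and 0.08 and of -0.48 and -0.45 per the authors' deposited table. Endod1, annotated as an endonuclease domain gene, stood at 0.83 and 0.48 in mRNA per the authors' deposited table, and Exog, a mitochondrial endonuclease gene, at 0.00 and -0.22. Dffa encodes the inhibitor of the nuclease that cuts DNA in dying cells, and its mRNA folds were -0.05 and -0.15 per the authors' deposited table. For the DNA damage kinase gene Atm, the authors' deposited table gave 0.07 and -0.21 in mRNA.

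Footprints of the members followed their mRNA in the mutant. At or above 1 were 9 of 49 in footprints at 24 hr, where 7.32% of all genes were, and 10 at 48 hr, where 7.43% were. Pik3cb alone stood at -1 or lower at each time, as did 7.90% and 8.29% of all genes. Both mRNA and footprints were at or above 1 for 8 members at each time. The RPF fold lay within 0.5 of the mRNA fold for 45 of 49 members at 24 hr and for 43 at 48 hr. Over all genes the quartiles of the RPF minus mRNA fold were also inside 0.5, at -0.17 and 0.13, then -0.26 and 0.16. Across the 49 genes the Pearson correlation of the mRNA and RPF folds was 0.98 at 24 hr and 0.97 at 48 hr. It describes genes, which are not replicates, and both measures come from portions of the same lysates. The few members with large folds, such as Pik3r5 and Irak3, weigh most in this correlation, which was not computed over all genes.

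**Figure D2:**
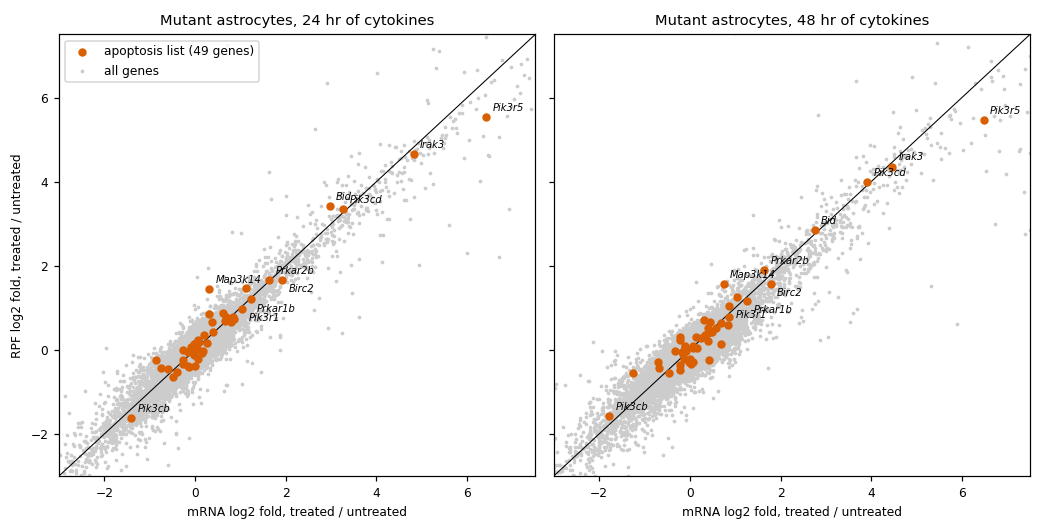
RPF log2 fold (y axis) against mRNA log2 fold (x axis) in mutant astrocytes at 24 hr (left) and 48 hr (right); orange points are the 49 genes, grey points all genes, the line marks equal folds, and points beyond the axis limits are not drawn. The members lie along the line, with Map3k14 above it and Pik3r5 below it.

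**Figure D3:**
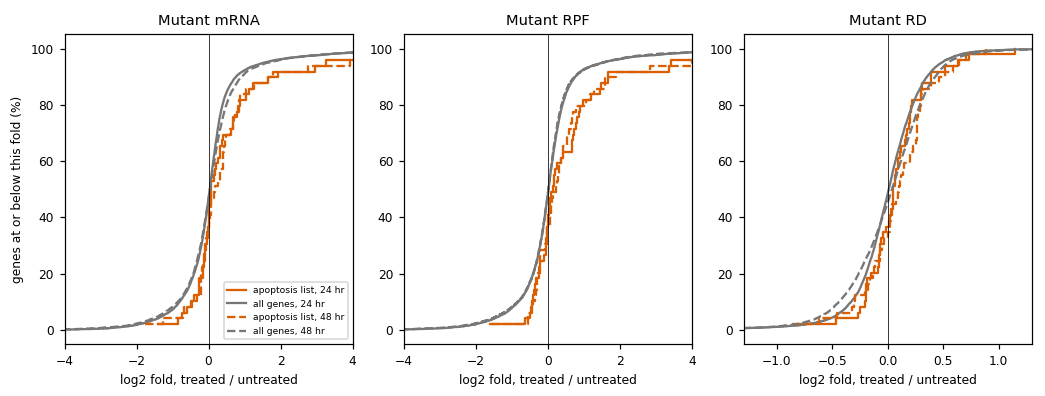
Share of genes at or below each log2 fold in mutant astrocytes for mRNA, RPF and RD, with the apoptosis list in orange and all genes in grey, 24 hr solid and 48 hr dashed; folds beyond the axis limits are not drawn. In mRNA and RPF the orange curves run to the right of the grey ones above 0, where 9 and 8 members in mRNA and 9 and 10 in RPF are at or above 1.

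Ribosome density relates footprints to mRNA, although the files give no formula for it. It was at or beyond 1 for a single member in the mutant. Map3k14 had RD folds of 1.15 at 24 hr and 0.89 at 48 hr per the authors' deposited table, the 43rd and 136th highest of all genes. It was the 1 member at or above 1 at 24 hr, where 0.606% of all genes were, and no member was at 48 hr, where 0.762% were. None stood at -1 or lower at either time, as did 1.10% and 1.24% of all genes. The lowest was Pik3r5, with RD folds of -0.81 and -0.86 per the authors' deposited table. By the plain difference of its RPF and mRNA folds it was the 1 member at -1 or lower at 48 hr, as were 1.35% of all genes. Fadd had an RD fold of 0.73 at 24 hr and 0.26 at 48 hr per the authors' deposited table. For Bid the authors' deposited table gave RD folds of 0.52 and 0.20. The median RD fold of the members was 0.05 at 24 hr and 0.10 at 48 hr, while all genes had medians of 0.01 and 0.04.

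Folds at 48 hr and at 24 hr rest on the same untreated libraries, and they were close for nearly all members. In mutant mRNA, 47 of 49 differed by less than 0.5, and the 48 hr fold exceeded the 24 hr fold by at most 0.64, for Pik3cd. In footprints 47 of 49 were within 0.5 as well, with a difference of 0.64 for Pik3cd and of -0.57 for Bid. The median difference was 0.01 in mRNA and -0.04 in footprints. Over all genes the quartiles of the difference were also inside 0.5, at -0.14 and 0.17 in mRNA and -0.16 and 0.13 in footprints. No member differed by 1 or more in either direction in mRNA, where 0.549% of all genes were higher and 0.869% lower by 1 or more at 48 hr, nor in footprints, where 0.729% and 1.12% were. In ribosome density too, none differed by 1 or more, where 0.639% of all genes were higher and 0.492% lower. There Bad was the only member to differ by 0.5 or more, with RD folds of -0.62 at 48 hr and 0.04 at 24 hr per the authors' deposited table.

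The WT folds allow each member to be set beside its fold in unmutated cells. Set against the 9 and 8 mutant members at or above 1 in mRNA, WT cultures had 9 at 24 hr, where 7.54% of all genes were, and 11 at 48 hr, where 8.11% were. Capn1 and Pik3cb were the 2 WT members at -1 or lower in mRNA at each time, as were 9.55% and 10.3% of all genes. In footprints 9 and 10 members were at or above 1 in the mutant, and 9 and 10 in the WT, where 7.87% and 8.13% of all WT gene folds were. At -1 or lower were 1 member at each time in the mutant, and 2 and 1 in the WT, as were 8.70% and 8.71% of all genes. Shared by both genotypes in mRNA at 24 hr were 8 members, among them Pik3r5, Irak3, Pik3cd, Bid, Birc2, Pik3r1 and Prkar1b. Of the highest mRNA folds, some were lower in the mutant per the authors' deposited table: Irak3 stood at 4.82 in the mutant and 4.98 in the WT at 24 hr, Bid at 2.96 and 3.29, and Birc2 at 1.92 and 2.18. Pik3cd was higher in the mutant per the authors' deposited table, at 3.27 and 3.91 in the mutant against 2.84 and 2.98 in the WT, a difference of 0.93 at 48 hr. Mutant and WT mRNA folds were within 0.5 of each other for 44 of 49 members at 24 hr and 40 at 48 hr, and RPF folds for 44 at each time. Over all genes the quartiles of the mutant minus WT mRNA fold were also inside 0.5, at -0.17 and 0.26, then -0.30 and 0.40. For RPF folds they were -0.16 and 0.15 at 24 hr and -0.20 and 0.18 at 48 hr. Closeness of the genotypes was thus not particular to the members. The sources used here do not say whether the WT libraries were prepared with the mutant ones, so genotype and library set cannot be told apart, and no difference was tested.

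At 48 hr 4 members had a mutant mRNA fold higher than the WT one by 1 or more, or 8.16%, where 7.38% of all genes did, a share near the background. They were Bad, Pik3r2, Capn1 and Map3k14. In the authors' deposited table Bad stood at 0.42 in the mutant and -0.84 in the WT, Pik3r2 at 0.68 and -0.54, Capn1 at 0.08 and -1.14, and Map3k14 at 0.75 and -0.38. No member was lower by 1 or more at 48 hr, where 0.705% of all genes were, and none differed by 1 or more at 24 hr, where 1.60% of all genes were higher and 0.352% lower. Pik3r5 had mRNA folds of 6.42 and 6.48 in the mutant and 6.08 and 6.10 in the WT, but footprint folds of 5.53 and 5.46 in the mutant and 6.10 and 5.98 in the WT, per the authors' deposited table. Prkar2b was higher in the mutant in mRNA and footprints at both times, with footprint folds of 1.65 and 1.89 in the mutant against 0.88 and 1.25 in the WT per the authors' deposited table. On the low side of the mRNA comparison the gaps were smaller. Among the 5 lowest differences at 24 hr, mutant fold minus WT fold per the authors' deposited table, were those of Pik3r3 at -0.47, Prkx at -0.34, Bid at -0.33 and Chuk at -0.30. At 48 hr the 5 lowest were those of Apaf1 at -0.57, Prkx at -0.54, Pik3r3 at -0.49, Ppp3ca at -0.48 and Ppp3r1 at -0.47 per the authors' deposited table. On the high side at 24 hr, the authors' deposited table had Capn1 at 0.84, Pik3r2 at 0.68, Prkar2b at 0.65, Bax at 0.56 and Bad at 0.53, and Bax stood at 0.94 at 48 hr. In footprints no member differed by 1 or more, where 0.868% and 0.934% of all genes were higher in the mutant by 1 or more at 24 hr and 48 hr, and 0.631% and 0.885% lower. The highest footprint differences after Prkar2b were those of Capn1, at 0.66 and 0.41, with Fadd at 0.53 and Bid at 0.42 following at 24 hr, and Bid at 0.30 and Pik3r1 at 0.29 among those that followed at 48 hr, per the authors' deposited table. The lowest at 24 hr were Pik3cd at -0.70, Pik3r5 at -0.56, Dffa at -0.47, Ppp3r1 at -0.40 and Casp9 at -0.32, and at 48 hr Prkaca at -0.60, Prkx at -0.59, Bax at -0.54, Pik3r5 at -0.52 and Casp8 at -0.44, per the authors' deposited table.

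Ribosome density had fewer members within 0.5 of each other between mutant and WT than mRNA or footprints, 40 of 49 at 24 hr and 30 at 48 hr. Over all genes the lower and upper quartiles of the mutant minus WT RD fold were -0.25 and 0.31 at 24 hr. At 48 hr those quartiles were -0.38 and 0.48. At or above 1 in WT density were 3 members at each time, Map3k14, Pik3cd and Bax, where 1.79% of all genes were at 24 hr and 2.85% at 48 hr. None stood at -1 or lower in the WT, as did 1.32% and 1.71% of all genes. Map3k14, the one of the 3 that was also high in the mutant, had RD folds of 1.15 and 0.89 in the mutant and 1.49 and 1.78 in the WT per the authors' deposited table. Bax (chromosome 7, 45461697 to 45466898, GRCm38) differed more between the genotypes. Its RD folds, per the authors' deposited table, were 0.30 at 24 hr and -0.18 at 48 hr in the mutant, against 1.04 and 1.22 in the WT. Its mRNA folds were 0.62 and 0.85 in the mutant and 0.06 and -0.09 in the WT, and its footprint folds 0.88 and 0.58 in the mutant and 1.07 and 1.12 in the WT, per the authors' deposited table. So the Bax footprint fold was lower in the mutant by 0.19 at 24 hr and 0.54 at 48 hr, while its mRNA fold was higher.

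Bad likewise had a higher mRNA fold and a lower RD fold in the mutant at 48 hr. Its RD fold at 48 hr was -0.62 in the mutant and 0.78 in the WT per the authors' deposited table. Its footprint folds at 48 hr were -0.25 in the mutant and -0.02 in the WT per the authors' deposited table. Pik3cd had RD folds of 0.11 and 0.15 in the mutant against 1.19 and 1.36 in the WT per the authors' deposited table. Pik3r2 stood at -0.46 in the mutant and 0.62 in the WT at 48 hr per the authors' deposited table. In the other direction, Fadd had an RD fold of 0.73 in the mutant and -0.08 in the WT at 24 hr, and Bid 0.52 and -0.24, per the authors' deposited table. Further RD differences at 24 hr, mutant minus WT per the authors' deposited table, included 0.60 for Pik3r3 and 0.53 for Aifm1 on the high side, and -0.74 for Pik3r5, -0.66 for Dffa and -0.44 for Casp6 on the low side. At 48 hr the high side was led by PI3K genes, with 0.75 for Pik3ca, 0.72 for Pik3cb, 0.69 for Pik3r3 and 0.64 for Pik3r1, and by Irak3 at 0.63, per the authors' deposited table. A mutant RD fold lower than the WT one by 1 or more was found for 1 member at 24 hr, Pik3cd, where 2.93% of all genes were lower, and for 4 at 48 hr, or 8.16%, where 7.74% of all genes were. These shares are near the background. No member was higher by 1 or more, where 1.44% and 3.21% of all genes were. The 2 genotypes' RD folds had the same sign for 31 of 49 members at 24 hr and for 20 at 48 hr. That share was not computed over all genes. The Pearson correlation of mutant and WT RD folds was 0.52 at 24 hr and 0.06 at 48 hr over members. Over all genes it was 0.30 and -0.06, so weak agreement in density was not particular to the members.

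**Figure D4:**
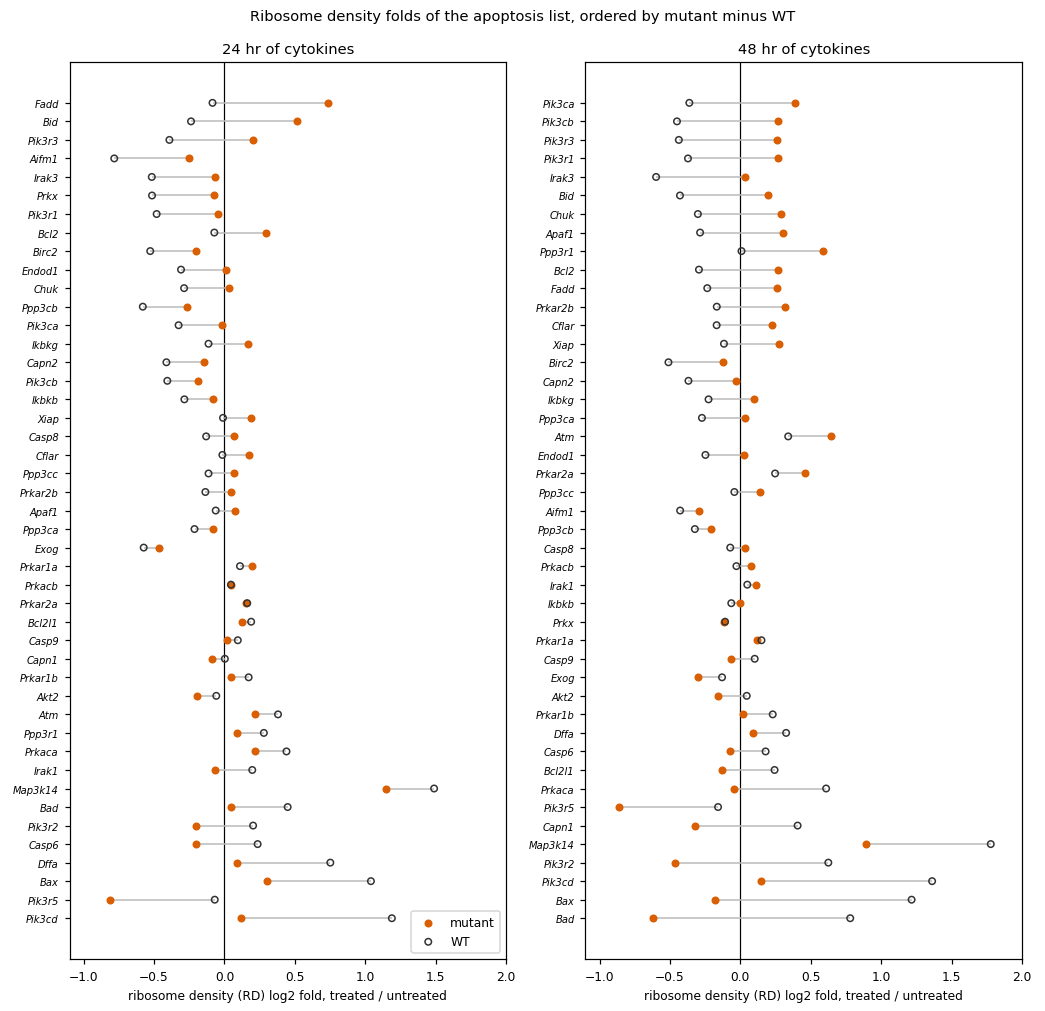
Ribosome density log2 fold of 45 of the 49 genes at 24 hr (left) and 48 hr (right), mutant as filled orange circles and WT as open circles, with genes ordered by the mutant fold minus the WT fold. Bad, Bax and Pik3cd end the 48 hr panel with mutant values of -0.62, -0.18 and 0.15 and WT values of 0.78, 1.22 and 1.36.

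A further deposited table gives an IS value per transcript, a score whose name the file leaves unexplained, for 2332 transcripts of which 12 belong to members. Of the 10 member transcripts with an IS value above 0 in mutant cells at both times, 9 were lower at 24 hr than in untreated cells, where 64.6% of all such transcripts were. The lowest ratio of treated to untreated was that of Ppp3ca, with IS values of 2.51 at 24 hr and 10.6 in untreated mutant cells, and of 13.8 and 8.41 in WT cells, per the authors' deposited table. Bax stood at 3.83 at 24 hr and 4.97 in untreated mutant cells per the authors' deposited table, while Ikbkb, the 1 that was higher, stood at 11.5 and 11.1. By the density of elongation reads per the authors' deposited table, Capn2 at 1.66, Bax at 1.11 and Pik3r1 at 0.991 ranked highest of the 12, where the median of all transcripts was 0.216.

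The 18 genes set aside from the authors' list, mostly receptors, adaptors and NF-κB genes, had a median mutant mRNA fold of 0.68 at 24 hr and 1.07 at 48 hr. Of these 18, 7 and 9 were at or above 1, or 38.9% and 50%, where 7.73% and 8.96% of all genes were. The authors' deposited table of list scores, which names no test, gave the list named KEGG Apoptosis mutant p-values of 1e-05 and 3e-06 for mRNA and 2e-06 and 3e-07 for RPF at 24 hr and 48 hr, all with a positive sign. For translational efficiency, the authors' deposited table gave mutant p-values of 0.35 and 0.42. The WT p-values of the same list, again with no test named, were 3e-06 and 1e-05 for mRNA per the authors' deposited table. They were 3e-08 and 1e-09 for RPF, all with a positive sign, and 0.64 and 0.27 for translational efficiency.

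A further list of apoptosis genes that are not on the authors' list had 116 genes with a fold. In mutant mRNA 9 of these were at or above 1 at 24 hr, or 7.76%, where 7.73% of all genes were, and 4 stood at -1 or lower, or 3.45%, where 7.27% of all genes did. At 48 hr 13 were at or above 1, or 11.2%, where 8.96% of all genes were, and 5 stood at -1 or lower, or 4.31%, where 8.24% of all genes did. The highest was Dapk2, a death-associated protein kinase gene, with mRNA folds of 4.50 and 4.63 per the authors' deposited table. Next were Ripk3, the necroptosis kinase gene, at 1.99 and 2.39, and the stress genes Gadd45a at 2.05 at both times and Gadd45b at 1.80 and 1.49 per the authors' deposited table. Also above 1 in mRNA per the authors' deposited table were Rffl at 1.63 and 1.78, Apip at 1.33 and 1.26, Tuba4a at 1.10 and 1.33 and Ern1 at 1.06 and 1.07. At 48 hr alone the authors' deposited table added Pidd1 at 1.26, Phlda3 at 1.08 and Tuba1c at 1.05. Trp53, which encodes p53, stood at 1.14 and 1.23 in mRNA per the authors' deposited table, and the p53-inducible BH3-only gene Bbc3 at 0.58 and 1.20. In density Bbc3 resembled Bax, with RD folds of -0.09 and -0.53 in the mutant and 1.16 and 1.08 in the WT per the authors' deposited table. The RD fold was lower in the mutant by 1 or more for 7 of the 116 (6.03%) at 24 hr (2.93% of all genes). At 48 hr it was for 10 (8.62%, where 7.74% of all genes were), and Bbc3 was among them at both times. Among BCL-2 family genes outside the list, the authors' deposited table gave mRNA folds of 0.60 and 0.88 for Bcl2l11, 0.42 and 0.46 for Bak1, -0.31 and -0.20 for Pmaip1 and -0.27 and -0.38 for the pro-survival gene Mcl1. Diablo, which encodes an IAP antagonist, stood at 0.12 and 0.06 in mRNA per the authors' deposited table. Of those far below 0, the authors' deposited table had Lmnb1, a lamin that caspases cleave, at -1.21 and -1.67, Gadd45g at -1.16 and -1.14, and Bok, a BAX-like gene, at -0.77 and -1.39. Bcl2l11 passed 1 in footprints per the authors' deposited table, at 1.02 and 1.09, and Gsn, which encodes the caspase substrate gelsolin, stood at -1.31 in footprints at 48 hr. Also past -1 in mRNA per the authors' deposited table were Actb at -1.13 and Actg1 at -1.02 at 24 hr, and Ptpn13 at -1.27 and Itpr1 at -1.13 at 48 hr.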

How the data were processed

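Primary astrocytes of a single genotype were measured by RNA-seq and Ribo-seq in 18 libraries, in 6 groups of 3. TopHat2, featureCounts and the build mm10, the same assembly as GRCm38, are named per the submitters' processing notes, without their roles. The sources used here name neither the program behind the folds nor the formula of RD. The values used are the log2 folds per gene, deposited by the authors as 1 pooled value per comparison. For mutant RPF at 48 hr the deposited values have 2 decimals. Also used were the authors' deposited IS score and elongation density signal per transcript, and their signed p-values per list, deposited as a score with no test named.

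Members were found by Ensembl identifier, and their folds were read from the table of all genes, where they equal those of the list. Counts at or beyond a log2 fold of 1, medians, ranks and differences of folds were computed with Python 3.11.15, pandas 2.3.3 and numpy 2.4.6, checked on simulated folds and set beside the same over all genes. Every member is accounted for by role. Named with values were up to 4 members per role with the largest absolute mutant mRNA fold, every member at or beyond 1 in a mutant column, central pathway genes, other apoptosis genes at or beyond 1 in mutant mRNA or RPF, and the 5 members with the largest mutant minus WT difference in each direction. The members and lists were chosen with earlier results of these data known. The roles of Irak1, Irak3, Endod1 and Exog were assigned after the data were seen, as was the promoter search. Coordinates came from GENCODE M21 and promoter sequences from RefSeq. With no replicate values, no test, error or depth could be given. Some genes that the naming rule covers are not reported here.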

Additional observations from a re-analysis of the deposited data

How the results depend on the processing

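No paired analysis was possible because the files give 1 pooled fold per gene and no value per library, so no replicate block was fitted and no replicate was left out. Of 90 alternative values for 18 counts and medians in the mutant, 61 stayed within 1.5 times the count or inside the 95% order-statistic interval of the median over the genes. That interval reflects the spread among member genes, not replicates, so medians inside it can still differ. With all 67 genes of the authors' list, the mRNA medians were 0.27 at 24 hr and 0.41 at 48 hr. The members had 0.07 and 0.17, and these shifts counted as inside. Matching by symbol returned the same 49 genes, so its 18 values, counted among the 61, could not differ. The medians of all genes were near 0, and centring on them kept all 18 values within those bounds. With a threshold of 0.58, the counts above it were 15 (mRNA, 24 hr), 15 (mRNA, 48 hr), 18 (RPF, 24 hr), 3 (RD, 24 hr) and 4 (RD, 48 hr), and those below 4, 4, 2, 1 and 2 in that order. With a threshold of 2, 4 members were above it in mRNA and in RPF at each time, and 0 in RD at 24 hr, with 0 below it in mRNA or RPF at either time. The shares of all genes at these changed thresholds were not computed, so these counts describe the members alone. With all 67 genes of the authors' list, 16 and 17 were at or above 1 in mRNA at 24 hr and 48 hr, 16 and 17 in RPF and 1 in RD at 48 hr. In mRNA these were 23.9% and 25.4%, where 7.73% and 8.96% of all genes were. In RPF they were 23.9% and 25.4%, where 7.32% and 7.43% of all genes were. The RD share was 1.49%, where 0.762% of all genes were. The mean in place of the median was 0.52 and 0.53 in mRNA and 0.54 in RPF at 48 hr, above the medians of 0.07, 0.17 and 0.21. When RD at 48 hr was replaced by the difference of the RPF and mRNA folds, the median was 0.017 and 1 gene, Pik3r5, was at or below -1. The depth per library is unknown, so members barely expressed in untreated cells, whose folds are least certain, could not be recognised.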
